A study of Oryza sativa with 12 samples.

Results

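H2A.Z and H3 were compared within NIP, the unmutated Nipponbare (japonica) rice of the series, by the regions in which each histone was enriched over input DNA. The members are the 4 NIP ChIP-seq libraries that the sample titles name for these antibodies, 2 NIP_H2AZ and 2 NIP_H3, out of 12 samples of the series, of which 8 are ChIP libraries and 4 are inputs. No library of the oschz1 mutant entered. All 4 libraries came from seedlings 30 days old grown in long days. Chromatin was precipitated with an anti-H2A.Z antibody or an anti-H3 antibody (ab1791, Abcam), and 2 biological replicates were made of each. The labels name Abmart as the source of the H2A.Z antibody, whereas the study's methods credit it to an earlier publication. A seedling holds many cell types, so every value is an average over them. The labels and the antibodies could not be checked against a marker, because the tables hold positions and reads only.

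H3 is a core histone, and a pair of H3 molecules sits in nearly every nucleosome, so an H3 ChIP follows nucleosome content. H2A.Z is a variant that replaces the canonical H2A in part of the nucleosomes, where chaperones and remodelling complexes exchange it as a dimer with H2B. In plants it is known from the nucleosomes around transcription start sites and from the bodies of genes that respond to environment or development. An H3 peak therefore marks bases with more H3 than the input predicts, and bases outside H3 peaks are not free of H3.

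The H2A.Z libraries held 49893 and 48048 peaks with 22192417 and 16886473 reads, and the H3 libraries 54026 and 51367 peaks with 13961812 and 9985812 reads. H3 thus had more peaks but fewer reads in them. Full library sizes, relative to H2A.Z replicate 1, were 0.772 for H2A.Z replicate 2 and 1.07 and 0.815 for the H3 libraries, so depth differed more between replicate numbers than between antibodies. Scaled to the size of H2A.Z replicate 1, the reads in peaks were 22192417 and 21871856 for H2A.Z and 13079716 and 12258682 for H3. Between 22 and 64 peaks of a library lay on unplaced sequence. Shares of the genome and of other peaks refer to the 12 numbered chromosomes, over 373.1 Mb up to the last NIP peak of each.

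H2A.Z peaks were fewer, wider and stronger over input than H3 peaks. The peak number was 48970.5 ± 1305 for H2A.Z and 52696.5 ± 1880 for H3 (SD, n = 2), while the covered length was 65.3 ± 1.74 Mb and 55.0 ± 3.70 Mb (SD, n = 2). The mean width was 1333 ± 0.0869 bp for H2A.Z and 1043 ± 33.1 bp for H3 (SD, n = 2). The ratio of ChIP reads to scaled input reads in peaks, here called enrichment, was 2.28 ± 0.00642 for H2A.Z and 1.47 ± 0.0315 for H3 (SD, n = 2). In each of these measures both H2A.Z libraries lay on one side of both H3 libraries. With 2 libraries against 2, a two-sided exact permutation test cannot give less than p = 0.33, and it gave 0.33 for each of these measures, or 0.381 after Benjamini-Hochberg adjustment over 8 library-level comparisons. The order of the peak numbers turned with the threshold. With a deposited fold of at least 2, 28192 ± 124 H2A.Z peaks and 7886 ± 1446 H3 peaks remained (SD, n = 2).

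The antibodies differed in their shares of wide and of narrow peaks. The median width was 1000 bp in both H2A.Z libraries and 800 bp in both H3 libraries, and the 10th percentile was 400 bp in all 4. Peaks of at least 2 kb made up 19.5% and 19.6% of H2A.Z peaks, and 10.2% and 9.14% of H3 peaks. These wide peaks held 44.1% and 43.6% of the H2A.Z bases, against 28.1% and 26% of the H3 bases. At the other end, peaks of 200 or 400 bp made up 13.3% and 12.5% of H2A.Z peaks and 20.0% and 21.7% of H3 peaks. The widest single peak was of similar length for both antibodies, 13400 and 14200 bp for H2A.Z and 14600 and 12600 bp for H3.

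Enrichment ran in opposite directions with width. From the 200 to 400 bp class to the class of 4 kb or more, H2A.Z enrichment went from 1.95 to 2.42 in replicate 1 and from 2.03 to 2.41 in replicate 2. Over the same classes H3 enrichment went from 1.71 to 1.34 and from 1.80 to 1.38. Input reads per kb differed less between these end classes, 55.9 and 58.7 in H2A.Z replicate 1 and 60.5 and 63.8 in H3 replicate 1. The fold over input entered the choice of peaks by the caller, and its part in this pattern was not tested. Overlap with the other antibody differed by width as well. Of H2A.Z peaks of at least 4 kb, 78.8% and 76.1% touched an H3 peak of the same replicate number, against 25.4% and 25.8% of those of 200 to 400 bp. A wider peak has more bases with which to touch another, which by construction raises this share with width. Counted by bases, the share of H2A.Z in H3 was 23.5% and 23.6% in the narrowest class. It was 38.1% and 34.7% at 1400 to 2000 bp and 33.1% and 30.6% in the widest class. Of H3 peaks of at least 4 kb, only 125 of 778 (16.1%) and 92 of 635 (14.5%) touched an H2A.Z peak, against 44.6% and 42.6% of the narrowest. In between, the share of H3 peaks that touched H2A.Z was highest at 1400 to 2000 bp (55.0% and 54.4%). It was 48.5% and 46.9% at 2200 to 3800 bp, so it fell below that of the narrowest peaks only in the widest class. That class held 1.44% and 1.24% of H3 peaks. Counted by bases, the share of H3 in H2A.Z was 44.4% and 42.4% in the narrowest class and 8.61% and 7.38% in the widest.

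**Figure D1:**
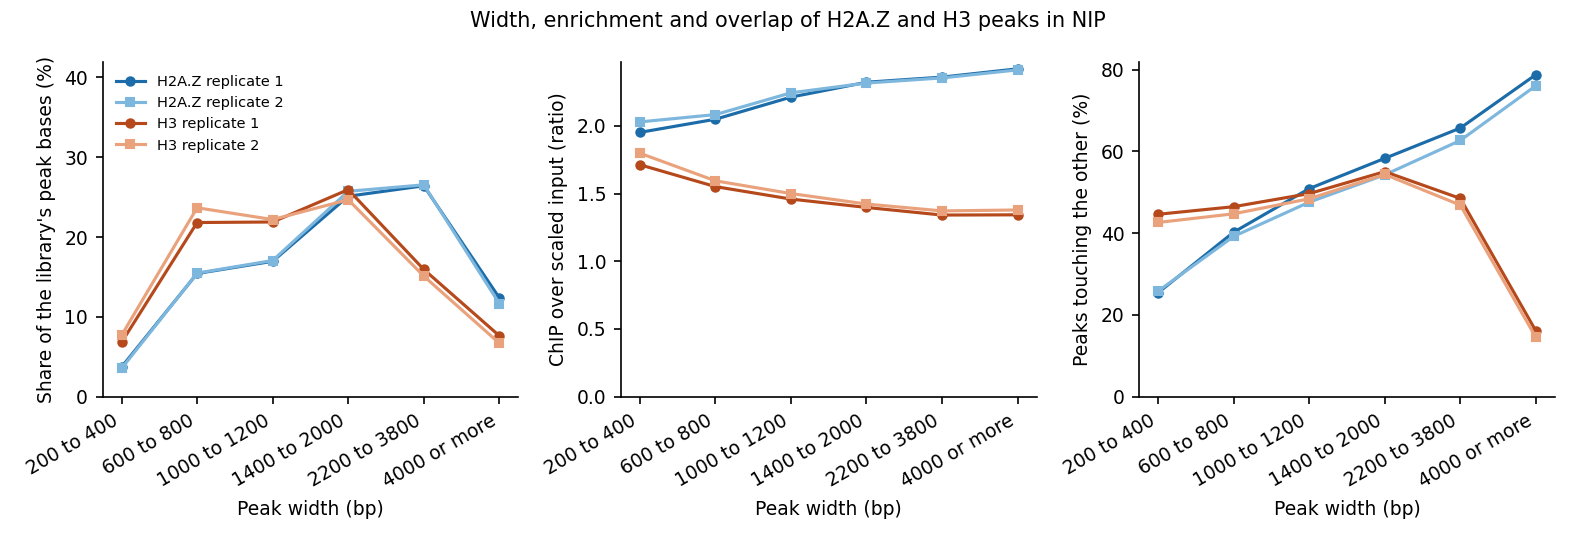
Share of peak bases (percent), enrichment (ratio of ChIP to scaled input reads) and share of peaks touching a peak of the other antibody (percent) by peak width in bp, 1 line for each NIP library. H2A.Z enrichment ends at 2.42 and 2.41 in the widest class and H3 enrichment at 1.34 and 1.38, and the share touching the other antibody ends at 78.8% and 76.1% for H2A.Z but at 16.1% and 14.5% for H3. Wider peaks have more bases with which to touch another, which raises the touching share by construction.

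The same contrast appeared in regions covered in both replicates. There were 1104 such H2A.Z regions of at least 4 kb, of which 125 (11.3%) held no base of an H3 peak in either replicate. There were 467 such H3 regions, of which 424 (90.8%) held no base of an H2A.Z peak. Any shared base excludes a region from these counts, so length by itself lowers both shares. With peaks at a false discovery rate of at most 1e-10, 317 of 330 long H3 regions (96.1%) were free of H2A.Z, but the share of long H2A.Z regions free of H3 went to 624 of 1103 (56.6%). With a fold of at least 2 it was 804 of 903 (89.0%), and no H3 region reached 4 kb. The count for H2A.Z thus depended on which H3 peaks were kept, while the share of long H3 regions free of H2A.Z moved less, as far as such regions remained. Per 10 Mb, long H2A.Z regions ranged from 8.62 on chromosome 11 to 59.6 on chromosome 3, and long H3 regions from 8.09 on chromosome 1 to 18.2 on chromosome 12.

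The longest H2A.Z region covered in both replicates was on chromosome 3, from 26064001 to 26077000, and lay in a single peak in each H2A.Z library, with 13000 bp common to both. Its scaled reads per kb were 367 and 362, with a fold of 2.83 and 2.20. H3 peaks covered 6400 bp of it in replicate 1, in 3 peaks, and 2600 bp in replicate 2, in 1 peak. Next came regions of 11600 bp on chromosome 1 (30359001 to 30370600), of 11400 bp on chromosome 4 (22914401 to 22925800), of 11000 bp on chromosome 5 (27577801 to 27588800) and of 10800 bp on chromosome 4 (26797801 to 26808600). All 5 held H3 peaks in both replicates, which covered between 1600 and 8400 bp. The longest H3 region was on chromosome 2, from 7783601 to 7795600, and lay in a single peak in each H3 library, with 12000 bp common to both, with scaled reads per kb of 242 and 254. The other 4 were on chromosome 6 (22162201 to 22173200), chromosome 1 (10537601 to 10548400 and 37429401 to 37440200) and chromosome 2 (33234801 to 33245600). None of these 5 held a base of an H2A.Z peak in either replicate. Their scaled H3 reads per kb ranged from 183 to 255, and their fold over input only from 1.22 to 1.56. Coordinates are 1-based on the MSU build of rice, and the genes at them were not analysed here.

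H2A.Z had a larger share of short gaps between neighbouring peaks than H3, and also more gaps of at least 100 kb. The median gap to the next peak on a chromosome was 2800 and 3000 bp for H2A.Z and 3600 and 3800 bp for H3, or 2900 ± 141 bp and 3700 ± 141 bp (SD, n = 2; exact permutation p = 0.33, the smallest possible). Gaps of at most 1 kb made up 25.1% and 24.2% of H2A.Z gaps and 19.9% and 18.6% of H3 gaps. At the 90th percentile the antibodies overlapped, with 14400 and 15200 bp for H2A.Z and 13600 and 14600 bp for H3. At the 99th percentile the H2A.Z gaps were 47200 and 48200 bp and the H3 gaps 31000 and 33200 bp. Gaps of at least 100 kb numbered 102 and 104 for H2A.Z and 17 and 18 for H3. Mean gaps were close, 6137 and 6423 bp for H2A.Z and 5843 and 6250 bp for H3, and overlapped between the antibodies.

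The longest stretch without an H2A.Z peak in either replicate was 586.2 kb on chromosome 6, from 18218801 to 18805000. It held 51 and 45 H3 peaks, which covered 43800 and 40400 bp. A second, on chromosome 11 from 12011401 to 12567600, held 12 and 11 H3 peaks, and the third, on chromosome 7 from 11913801 to 12325000, held 28 and 35. Stretches without H3 were shorter and were empty of H2A.Z as well. They lay on chromosome 4 (15570401 to 15852600, 282.2 kb), chromosome 11 (12291001 to 12555400, 264.4 kb) and chromosome 7 (12120001 to 12282400, 162.4 kb). The stretches on chromosomes 11 and 7 lay inside the H2A.Z-free ones. Input reads outside peaks are not given in the tables, so the input in these stretches was not analysed here.

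Reads per kb in peaks, scaled to the size of H2A.Z replicate 1, were 334 and 341 for H2A.Z and 227 and 234 for H3. The unscaled values were 334 and 264 for H2A.Z and 242 and 191 for H3, so replicate 1 lay above replicate 2 for each antibody. Input reads per kb were 58.4 and 48.0 in H2A.Z peaks and 62.3 and 50.2 in H3 peaks. H3 peaks had the higher input density in each replicate number. These input values were not scaled for depth, and the input of replicate 2 was 0.806 of the size of that of replicate 1. The exact permutation test over them (p = 0.667) ignores this depth and the shared inputs, so it cannot decide this difference. The deposited fold had a median of 2.12 and 2.15 in H2A.Z peaks and of 1.47 and 1.52 in H3 peaks. A fold of at least 2 was reached by 56.7% and 58.5% of H2A.Z peaks and by 12.7% and 17.3% of H3 peaks. A fold under 1.5 was found for 14.3% and 13.4% of H2A.Z peaks and for 53.3% and 47.3% of H3 peaks. Differences between the antibodies in efficiency and in the amount of each histone cannot be told apart from these values.

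Peaks with the same start and end in both antibodies allowed a comparison over identical bases and identical input. There were 3820 of these in replicate 1 and 3426 in replicate 2, and every one carried the same input count in both tables. Enrichment in them was 2.63 and 2.67 for H2A.Z and 1.45 and 1.48 for H3. The H2A.Z to H3 ratio of enrichments had a median of 1.71 and 1.70, a 10th percentile of 1.06 and 1.04 and a 90th percentile of 2.33 and 2.32. It was above 1 in 3535 (92.5%) and 3154 (92.1%) of these peaks. These ratios rest on the recovered size of the full libraries. With the sum of reads in peaks as library size, a setting chosen after seeing the data, the median was 1.01 and 0.955 and the ratio was above 1 in 50.8% and 44.6%. That size divides out the antibodies' difference in total reads in peaks. When the replicate numbers were crossed, only 2.06% and 2.54% of such peaks had the same input count, so libraries of both antibodies with one number had shared an input.

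Coverage by H2A.Z differed between chromosomes, whereas coverage by H3 hardly did. H2A.Z peaks covered from 12.2% and 11.5% of chromosome 12 to 23.9% and 23.1% of chromosome 3, a range of 1.96-fold and 2.01-fold. H3 peaks covered from 14.5% and 13.2% of chromosome 12 to 16.4% and 14.7% of chromosome 3, a range of 1.13-fold and 1.12-fold. The coefficient of variation over the 12 chromosomes was 20.9% and 21.5% for H2A.Z and 3.38% in both H3 libraries. On chromosomes 1 to 7 both H2A.Z libraries lay above both H3 libraries. The widest separation was on chromosome 1, where H2A.Z covered 22.9% and 22.2% and H3 15.4% and 13.7%. On chromosomes 11 and 12 both H2A.Z libraries lay below both H3 libraries, and on the other 3 the antibodies overlapped. Replicate 1 covered more than replicate 2 on all 12 chromosomes for both antibodies, by 0.552 to 0.816 percentage points for H2A.Z and by 1.09 to 1.72 for H3.

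**Figure D2:**
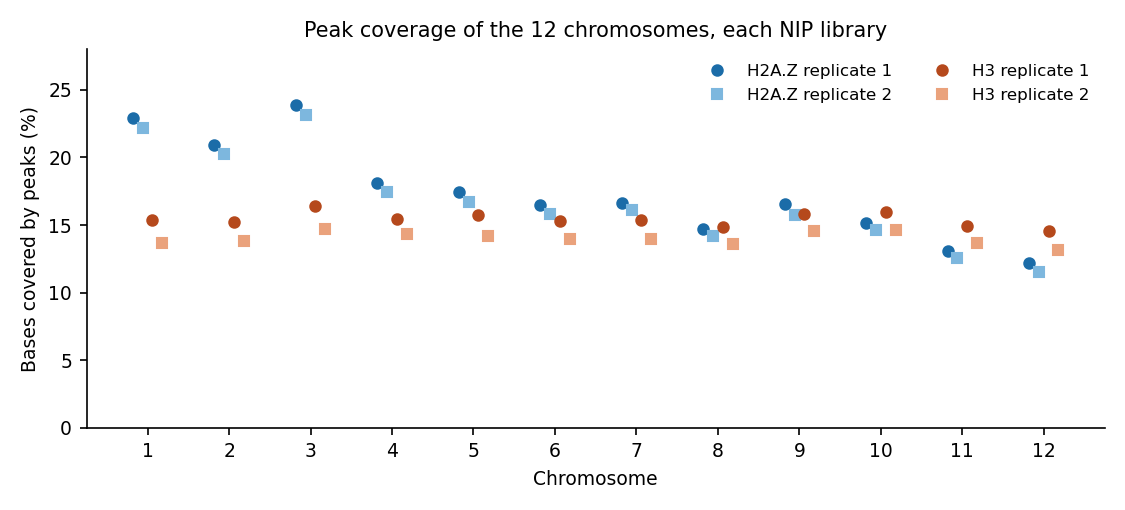
Percent of each of the 12 chromosomes covered by peaks, 1 point for each NIP library. H2A.Z falls from 23.9% and 23.1% on chromosome 3 to 12.2% and 11.5% on chromosome 12, while H3 stays between 14.5% and 16.4% in replicate 1 and between 13.2% and 14.7% in replicate 2.

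The chromosomes differed in how many H2A.Z peaks they held and how wide these were, and little in how strong they were. H2A.Z peaks per Mb ranged from 105 and 97.5 on chromosome 12 to 163 and 160 on chromosome 3. Mean H2A.Z width was lowest on chromosome 12, at 1163 and 1183 bp, and reached 1460 bp on chromosome 3 in replicate 1 and 1450 bp on chromosome 4 in replicate 2. H2A.Z enrichment stayed within 2.24 to 2.29 in replicate 1 and 2.25 to 2.3 in replicate 2. H3 peaks per Mb ranged from 135 to 153 in replicate 1 and from 129 to 144 in replicate 2, and H3 enrichment from 1.43 to 1.48 and from 1.47 to 1.52. H3 enrichment was lowest on chromosome 1 and highest on chromosome 12 in both replicates.

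Both antibodies varied more at 1 Mb than over whole chromosomes, and H2A.Z again varied more than H3. Over 367 windows of 1 Mb, the 10th and 90th percentiles of H2A.Z coverage were 6.66% and 31.6% in replicate 1 and 6.37% and 30.5% in replicate 2. For H3 they were 11.9% and 18.9%, and 11.1% and 17.1%. The coefficient of variation was 52.6% and 53.2% for H2A.Z and 17.5% and 17.6% for H3. As a description over windows that share libraries and input, Pearson's r of H2A.Z with H3 coverage was -0.09 in replicate 1 and -0.11 in replicate 2. Between replicates it was 0.999 for H2A.Z and 0.938 for H3, so the smaller variation of H3 was also shared by its replicates. Both H2A.Z libraries lay above both H3 libraries in 196 windows and below them in 154, and the antibodies overlapped in 17.

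**Figure D3:**
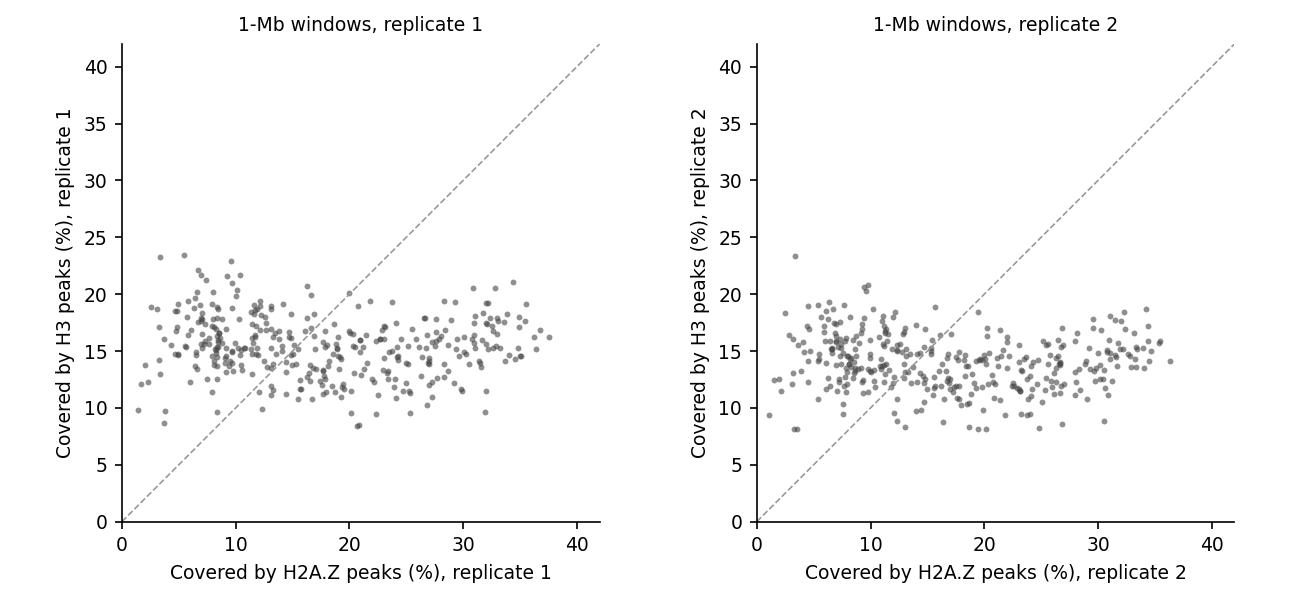
Percent of each of 367 windows of 1 Mb covered by H2A.Z peaks (horizontal) and by H3 peaks (vertical), 1 panel for each replicate number, with the line of equal coverage. The points spread over 1.38% to 37.5% along the H2A.Z axis and 8.38% to 23.5% along the H3 axis in replicate 1, without a slope (Pearson's r of -0.09 and -0.11).

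Windows were then put in order of H2A.Z coverage in replicate 1 and divided in 4 groups of 91 or 92. From the lowest to the highest group, mean H2A.Z coverage in replicate 2 was 6.35%, 12.2%, 20.1% and 29.6%. Mean H3 coverage in replicate 2 was 14.8%, 14.3%, 12.8% and 14.1%, lowest in the third group. The share of H3 bases that lay in H2A.Z peaks was 15.6%, 29.7%, 50.1% and 65.6% in replicate 2. The grouping by H2A.Z coverage raises this share by construction. In the other direction the share of H2A.Z bases in H3 peaks was 36.2%, 34.9%, 32.0% and 31.4%. In replicate 1 the same shares went from 16.1% to 66.4% and from 39.1% to 33.9%. Relative to the product of both coverages, the overlap was 2.44, 2.45, 2.5 and 2.21 in replicate 2 and 2.41, 2.39, 2.43 and 2.17 in replicate 1, so it varied far less than the H3 share.

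By chromosome, the share of H3 bases in H2A.Z ranged from 27.5% and 27.4% on chromosome 12 to 52.5% and 51.9% on chromosome 1. The share of H2A.Z bases in H3 ranged from 32.8% to 38.0% in replicate 1 and from 31.1% to 34.8% in replicate 2. The H3 share rises with H2A.Z coverage by construction here too. Relative to the product of both coverages, the overlap ranged from 2.12 to 2.40 in replicate 1 and from 2.15 to 2.49 in replicate 2, or 1.13-fold and 1.16-fold.

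Less than 1 in 2 bases of either antibody lay in peaks of the other. In replicate 1, 23.4 Mb were covered by both, 43.1 Mb by H2A.Z alone and 34.1 Mb by H3 alone. In replicate 2 these were 20.9, 43.1 and 31.4 Mb. The shared bases were 35.2% and 32.7% of the H2A.Z bases and 40.7% and 40.0% of the H3 bases. Averaged over both libraries of the other antibody, the share was 33.8 ± 0.630% for H2A.Z and 40.2 ± 0.157% for H3 (SD, n = 2; exact permutation p = 0.33). Over the 4 cross pairs these shares were 2.25 to 2.33 times the share of the genome that the other antibody covered. The background for these numbers is the agreement of replicates. Of the H2A.Z bases, 87.0% and 90.3% lay in a peak of the other replicate, against 66.7% and 73.4% of the H3 bases (88.7 ± 2.36% and 70.1 ± 4.72%, SD, n = 2; exact permutation p = 0.33). Agreement grew with width for both, from 65.0% to 93.1% in H2A.Z replicate 1 and from 54.4% to 84.5% in H3 replicate 1.

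With bases counted only where both replicates of an antibody had a peak, 57.9 Mb were H2A.Z and 38.4 Mb were H3. All 4 libraries covered 15.1 Mb, or 26.1% of these H2A.Z bases and 39.4% of these H3 bases. H2A.Z in both replicates with H3 in neither took 30.2 Mb (52.3%), and H3 in both with H2A.Z in neither took 22.5 Mb (58.8%). No library had a peak on 258.6 Mb, 69.3% of the length. The classes differed in shape. Stretches shared by all 4 libraries numbered 17401 with a median of 800 bp. Stretches in both H2A.Z libraries and in neither H3 library numbered 42029 with a median of 600 bp, and 30.5% of these were a single 200 bp window. Stretches in both H3 libraries and in neither H2A.Z library numbered 24266, with a median of 800 bp and a longest of 12000 bp. An H2A.Z peak sometimes spanned several H3 peaks (2 or more in 3.18% and 2.83% of H2A.Z peaks), while the reverse was found in 0.269% and 0.234% of H3 peaks.

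The position of H3 around H2A.Z regions was not even. For H2A.Z regions covered in both replicates, H3 peaks covered 45.3% and 41.3% of the bases 400 to 600 bp inside the edge, and 29.2% and 25.9% of the first 200 bp inside. Just outside, H3 coverage was 6.55% and 5.78% over the first 200 bp and reached its lowest value, 5.39% and 4.83%, at 200 to 400 bp. It then climbed slowly, to 9.40% and 8.52% at 800 to 1000 bp and to 12.8% and 11.5% at 4800 to 5000 bp. Beyond 10 kb it was 14.2% and 13%. The flanks of H2A.Z regions thus held less H3 coverage than distant bases, at 0.380 and 0.370 of that level. With peaks at a false discovery rate of at most 1e-10 this ratio was 0.284 and 0.265, with a fold of at least 2 it was 0.235 and 0.179, and with peaks less than 600 bp apart joined it was 0.435 and 0.417. These settings were chosen after seeing the data, and both H3 libraries showed the dip under each.

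Around H3 regions H2A.Z coverage dipped slightly at 400 to 600 bp outside, but did not drop below its level beyond 10 kb. H2A.Z coverage was 44.7% and 44.4% at 400 to 600 bp inside H3 regions and 27.2% and 26.4% over the first 200 bp outside. It was 13.8% and 13.2% at 400 to 600 bp outside, 15.5% and 14.8% from 1 to 5 kb, and 11.9% and 11.2% beyond 10 kb. Inside, it dropped with depth, to 5.4% and 5.6% at 1800 to 2000 bp from the edge, where H3 coverage inside H2A.Z regions still was 38.8% and 35.3%. Bases that deep exist only in the longest regions, 1000 windows of 200 bp for H3 and 2436 for H2A.Z.

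**Figure D4:**
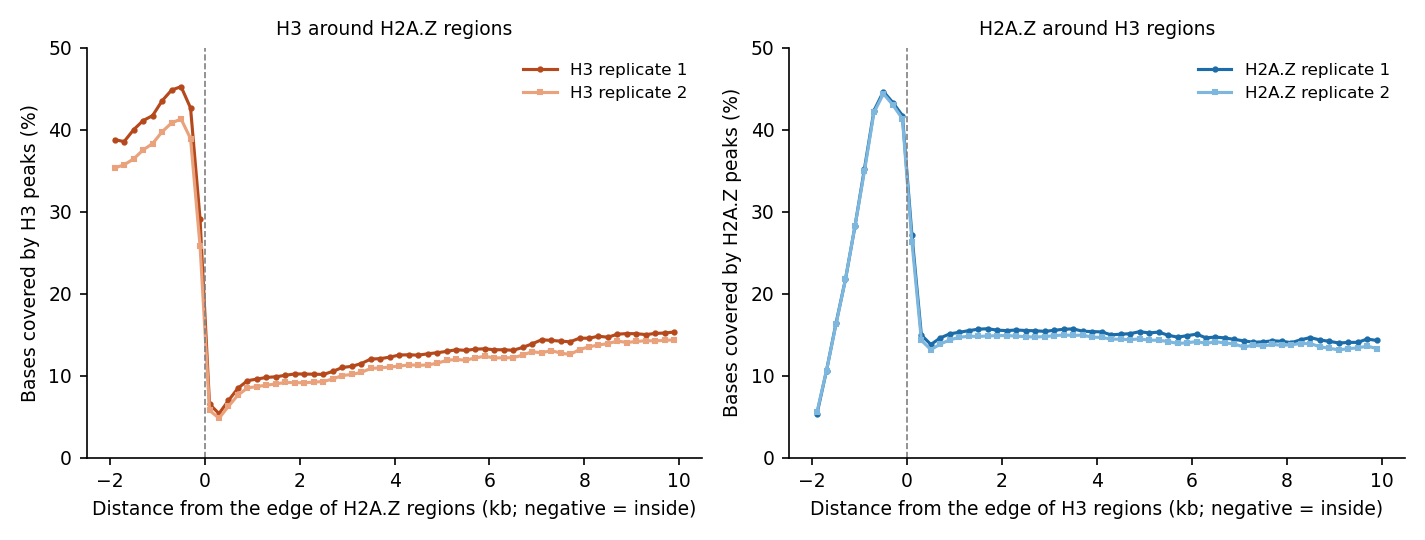
Percent of bases covered by peaks of one antibody, by distance in kb from the edge of regions that the other antibody covered in both replicates (negative is inside), 1 line for each replicate. H3 coverage drops from 45.3% and 41.3% inside H2A.Z regions to 5.39% and 4.83% at 200 to 400 bp outside, and H2A.Z coverage inside H3 regions ends at 5.4% and 5.6%.

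The distance from regions of one antibody to the nearest region of the other was set against that of uncovered bases. Of 39715 H3 regions covered in both replicates, 43.9% overlapped an H2A.Z region, and the remaining 22283 were a median of 3600 bp from the nearest one. Of these, 20.7% lay within 1 kb, against 27.2% of all bases outside H2A.Z regions, and 21.2% lay beyond 10 kb, against 18.5% of those bases. Of 46501 H2A.Z regions, 35.6% overlapped an H3 region, and 29926 did not. The latter were a median of 3200 bp away, with 20.5% within 1 kb against 24.0% of the bases outside H3 regions, and 11.2% beyond 10 kb against 13%. The uncovered bases had a median of 3000 bp in both cases. These shares were not tested, and the distance of a region is taken from its edge.

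Relative to input, H2A.Z peaks that met H3 were the stronger ones, and H3 peaks that met H2A.Z the weaker ones. H2A.Z peaks with no base in an H3 peak, 51.4% and 53.4% of all, had an enrichment of 1.91 and 1.95. Those with some of their bases in H3 had 2.51 and 2.53. H3 peaks with no base in H2A.Z, 52.1% and 53.7% of all, had an enrichment of 1.5 and 1.56, and those that lay wholly in H2A.Z, 37.7% and 36.6%, had 1.42 and 1.45. By reads per kb the H3 order was the opposite, with 228 and 180.1 without H2A.Z and 270.3 and 212 wholly inside it. Input reads per kb moved with the overlap, at 56.9 and 45.6 in H3 peaks without H2A.Z and 71.0 and 57.8 in H3 peaks wholly inside it. In H2A.Z peaks the input reads per kb were 54.5 and 45.4 without H3 and 59.9 and 49.1 with some of it. The part of input density in these differences was not tested.

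With peaks in 4 equal groups of increasing deposited fold, the share of H2A.Z peaks that touched H3 increased from 25.1% to 35.0%, 57.3% and 77.1% in replicate 1, and from 24.5% to 33.5%, 54.9% and 73.4% in replicate 2. For H3 peaks the share that touched H2A.Z decreased over the groups, 57.8%, 52.7%, 45.9% and 35.2% in replicate 1 and 58.7%, 50.3%, 43.3% and 32.8% in replicate 2. The 2 antibodies of a replicate number shared their input, so the folds have a common denominator. Within the width class of 1000 to 1200 bp, H2A.Z enrichment in replicate 1 was 1.85 without and 2.51 with H3. In the class of 4 kb or more it was 2.05 and 2.51, so the difference was also present among peaks of like width.

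**Figure D5:**
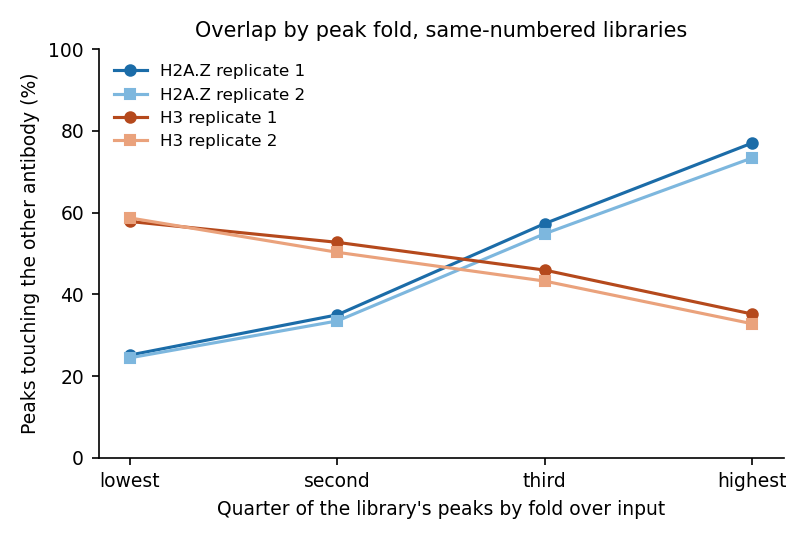
Percent of peaks that touch a peak of the other antibody with the same replicate number (vertical), in 4 equal groups of the library's peaks by deposited fold over input (horizontal), 1 line for each NIP library. The H2A.Z lines climb from 25.1% and 24.5% to 77.1% and 73.4%, and the H3 lines descend from 57.8% and 58.7% to 35.2% and 32.8%.

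Reads were then compared region by region. Merging the peaks of the 4 libraries gave 83834 regions, of which 16951 (20.2%) had a peak in every library and were tested, with a median length of 1600 bp. The libraries often covered different bases of a region. All 4 shared at least 80% of the length in 2784 tested regions and no base in 766. A further 15418 regions had H2A.Z in both replicates and no H3, and 19268 had H3 in both and no H2A.Z. Per base covered and per library size, H2A.Z reads were above H3 reads in 11968 of the 16951 regions (70.6%) and below them in 159 (0.938%), by edgeR's quasi-likelihood test with calls made at 0.05 after Benjamini-Hochberg adjustment. The median log2 ratio of H2A.Z to H3 reads was 0.64, and the 1st and 99th percentiles were -0.42 and 1.34. This direction rests on the recovered size of the full libraries. When library size was instead the sum of reads in peaks, 719 regions were above and 3531 below, with a median log2 of -0.16. With TMM factors 2547 were above and 2315 below, and with DESeq2 1689 and 1547. TMM and DESeq2 centre the ratios of the tested regions, so a near-even split was set by design. These fits therefore cannot show which antibody gave more reads. The sum of reads in peaks as size divides out the antibodies' difference in total reads in peaks, so it cannot show this either. Scaled to full library size, those totals were 22192417 and 21871856 for H2A.Z and 13079716 and 12258682 for H3. The direction over the tested regions as a whole thus holds relative to full library size only. Leaving out H2A.Z replicate 1 left 10562 regions above and 81 below.

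By chromosome, the share of tested regions with H2A.Z above H3 was between 66.3% on chromosome 12 and 73.3% on chromosome 6. These shares depended on the scaling as well. With the sum of reads in peaks as size, between 3.17% and 5.47% were above and 17.9% to 23.4% below. This size divides out the antibodies' difference in those reads. With TMM factors, which set a near-even split by design, 13.4% to 16.6% were above and 11.2% to 15.3% below. In regions called above, H2A.Z enrichment was 2.70 in both replicates and H3 enrichment 1.40 and 1.42. In the 159 regions called below, H2A.Z enrichment was 1.53 and 1.61 and H3 enrichment 1.73 and 1.68. The calls were made on the same ChIP reads, so this contrast follows at least in part from the selection. H3 peaks covered 63.4% and 60.9% of the length of regions called above, and 42.2% and 40.6% of those called below. H2A.Z peaks covered 87.6% and 86.5% of the length of regions called above and 73.8% and 72.0% of those called below. The calls below depended on the settings. With scaled input as offset 13 regions were below H3. In a fit without the covered bases in the offset, chosen after seeing the data, 13413 regions were above and 774 below. Of the 159, that fit called 40 below and 55 above, and it called 10718 of the 11968 above and 279 below. H3 peaks in the 19268 regions without H2A.Z had an enrichment of 1.5 and 1.55, and H2A.Z peaks in the 15418 regions without H3 had 1.89 and 1.91. Over the tested regions the values were 1.42 and 1.44 for H3 and 2.54 and 2.55 for H2A.Z.

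The region with the largest ratio was on chromosome 11, from 12685401 to 12690000. H2A.Z had 799 and 802 scaled reads per kb over 1400 bp in each replicate, and H3 had 214 and 215 over 3400 and 3800 bp. The log2 ratio was 1.9 (SE 0.0832, edgeR adjusted p = 5.62e-05). The reads themselves were 1118 and 867 for H2A.Z and 775 and 664 for H3. Since reads were divided by the bases that a library's own peaks cover, the ranking favours the antibody with the narrower peaks, and in the next 4 regions too H2A.Z covered fewer bases than H3. They were on chromosome 11 (25899001 to 25901000, log2 ratio 1.85), chromosome 7 (20067401 to 20070000, 1.82), chromosome 11 (11444801 to 11446600, 1.72) and chromosome 12 (20363001 to 20365400, 1.71). Without the covered bases in the offset, the log2 ratio of the first was 0.54 (edgeR adjusted p = 6.05e-03) and that of the others 0.59 to 1.31, of which the region on chromosome 12 lost its call (edgeR adjusted p = 0.0975).

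The region with the smallest ratio was on chromosome 2, from 20946001 to 20948200. H2A.Z had 171 and 197 scaled reads per kb there and H3 315 and 431, and no base was covered by all 4 libraries. The log2 ratio was -1.02 (SE 0.182, edgeR adjusted p = 1.36e-03). The other 4 were on chromosome 5 (18304401 to 18304800, log2 ratio -0.95), chromosome 3 (14831801 to 14833000, -0.91), chromosome 12 (4396201 to 4397200, -0.89) and chromosome 3 (23872401 to 23875200, -0.88). In these 4, H3 peaks covered 200 to 800 bp and H2A.Z peaks 400 to 2600 bp, so the division by covered bases lowered their ratios. The reads at the first on chromosome 3 were 346 and 184 for H2A.Z and 218 and 158 for H3. At the second they were 470 and 231 for H2A.Z and 236 and 201 for H3, and there too all 4 libraries shared no base. Without the covered bases in the offset, the log2 ratio of these other 4 regions turned to between 0.04 and 0.89. The ratio of the region on chromosome 2 was then -1.01 (edgeR adjusted p = 1.63e-03).

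Peaks with many reads per kb of one antibody also occurred without the other. Among 8842 regions of at least 1 kb with H2A.Z in both replicates and no H3 peak, the most reads were found on chromosome 6, from 13375001 to 13376400, with 623 and 635 scaled H2A.Z reads per kb and a fold of 2.82 and 3.20. The next 4 were on chromosome 3 (33879201 to 33880200), chromosome 1 (11070801 to 11072200 and 10509401 to 10510800) and chromosome 9 (14029201 to 14030600), with 529 to 659. Among 11136 regions with H3 and no H2A.Z peak, the highest was on chromosome 11, from 16542001 to 16545800, with 487 and 494 scaled H3 reads per kb. Its fold was only 1.16 and 1.05, so the input was high there as well. The region on chromosome 6 from 6686601 to 6687600, with 450 and 500 scaled reads per kb, had a fold of 2.84 and 2.32. The other 3 were on chromosome 3 (13539401 to 13542200, fold 1.33 and 1.59), chromosome 7 (11938201 to 11939200, 1.38 and 1.24) and chromosome 1 (5987201 to 5988200, 1.99 and 1.68).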

How the data were processed

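ChIP-seq of H2A.Z and H3 in NIP seedlings was analysed from 4 peak tables, grouped by sample title. The authors mapped paired reads to the MSU7 rice genome with Bowtie2 and removed reads of mapping quality under 20 and potential PCR duplicates with SAMtools. H2A.Z peaks were called against input in each library with SICER (200 bp windows, a gap setting of 200 bp, a false discovery rate of 0.05). Which caller was used for H3 is not given in the sources used here, but the tables have the same layout. The deposited tables give, for each peak, a count of ChIP and one of input reads, neither normalised, the fold of ChIP over input as a ratio, and the caller's p-value and false discovery rate. Reads outside a library's own peaks are not part of the tables, and no annotation or genome of this build was used.

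The ratio of ChIP to input library size was recovered from the fold column, and the sizes of the inputs relative to each other (0.806) from 34352 peaks with equal coordinates. Peaks were compared in windows of 200 bp. Differences between antibodies at library level were tested by exact permutation, two-sided. Regions merged over the libraries, with a peak in all 4, were tested with edgeR 4.0.16 in R 4.3.3, with the recovered library size times the covered bases as offset. DESeq2 1.42.0 was an alternative, and other steps used Python 3.11.15 with numpy 2.4.6 and pandas 2.3.3. The count test was tested on simulated data. Counts cover only bases that a library's own peaks cover, and PCR reads without molecular identifiers are not independent molecules.

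Regions named are the 5 with the largest and the 5 with the smallest log2 ratio among those past the threshold whose antibodies did not overlap, the 5 longest of each antibody covered in both replicates, the 5 with the most reads per kb of at least 1 kb without a peak of the other, and the 3 longest stretches free of each. The comparison, lists and rules were chosen with earlier results of these data known. Alternatives were peaks with a fold of at least 2, or a false discovery rate of at most 1e-10, peaks less than 600 bp apart joined, overlap counted by peaks, other library sizes, scaled input reads (plus 0.5) as offset, regions of equal extent, at least 80% common bases, at least 50 reads, the replicate number as a block, and leaving out each library. A fit without the covered bases in the offset was added after seeing the data. The tables of the oschz1 mutant were not used.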

Additional observations from a re-analysis of the deposited data

How the results depend on the processing

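Of the library-level comparisons, covered length, mean width, median gap and enrichment kept their direction under all alternatives run at that level. The share of own bases in the other replicate did so under the 3 alternatives that were added after seeing the data. All of these kept the recovered library size, on which enrichment rests. In peaks with the same start and end in both antibodies, the median ratio of enrichments was 1.71 and 1.70 with that size. It was 1.01 and 0.955 with the sum of reads in peaks as size, which divides out the antibodies' difference in those reads. The difference in peak number, H2A.Z minus H3, was -3726 and turned to 19524 with a false discovery rate of at most 1e-10 and to 20307 at a minimum fold of 2. The difference in input reads per kb, -3.03, turned to 0.648 and 15.1 under the same thresholds, and was between -9.05 and 2.99 on leaving out single libraries, turning without H2A.Z replicate 2 and without H3 replicate 1. Same-numbered libraries shared an input, so these omissions leave the inputs unbalanced between the antibodies, and within each number H3 was the higher one (62.3 against 58.4, and 50.2 against 48.0). The difference in the share covered by the other antibody, -6.37 percentage points, was 0.481 when peaks with at least 1 bp in the other were counted. Leaving out a library moved the others within their direction: peak number from -5056 to -2397, covered length from 7.70 to 12.9 Mb, mean width from 267 to 314 bp, median gap from -900 to -700 bp, enrichment from 0.781 to 0.826 and the share covered by the other from -7.96 to -4.78 percentage points. No library-level test can pass 0.05 with 2 libraries against 2.

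For the region test, the counts above and below were 11968 and 159. They were 719 and 3531 with the sum of reads in peaks as size (median log2 -0.16), 2547 and 2315 with TMM factors, 1689 and 1547 with DESeq2 (median log2 -0.0055), 11500 and 13 with scaled input as offset, and 13413 and 774 (median log2 1.17) without the covered bases in the offset, which was added after seeing the data. Fewer regions were tested with equal extent (901 and 13 of 1072) and with at least 80% common bases (2526 and 27 of 2784). Leaving out a library gave 10304 to 11710 above and 81 to 184 below, a lone library being assumed to vary like the others. With the replicate block 12096 were above and 174 below, and 11967 calls were shared with the fit without it. Deviations of libraries with the same number had a correlation of 0.0038, so with 2 pairs the numbers were not taken to pair the libraries in this test, although they shared an input. With TMM factors and DESeq2, which centre the ratios of the tested regions, a near-even split was set by design. The sum of reads in peaks as size divides out the antibodies' difference in those reads, also by design. The cause of the other shifts was not tested, apart from the smaller numbers of regions.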
